A study of Homo sapiens with 2 samples.

Results

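The genes described here are the protein-coding genes of the short arm of human chromosome 12 (12p), measured in TCam-2 cells. Members were chosen by position, less a set of genes left out by name, as protein-coding genes of chromosome 12 that end before 35.5 Mb on GRCh38 in GENCODE release 29. The annotation held 291 such genes, of which 290 were also in the gene-level file, and 19 of these were left out by name or symbol, mainly glycolysis, pluripotency and cell cycle genes and DDX, NDUF, EIF and histone genes. This left 271 members among 62700 genes in all. The 736 protein-coding genes of the long arm (12q), chosen by the same symbols, served for comparison. TCam-2 is an established human testicular cancer cell line, derived from a seminoma. The series holds 1 group, TCam-2 cells with DDX53 overexpression (by transduction of DDX53-FLAG, a tagged DEAD-box RNA helicase), as 2 replicate libraries of polyadenylated RNA. The labels do not say whether the replicates came from separate cultures, so tests between them measure only the spread between these libraries. The control cells of the study, a GFP-FLAG transduction and a WT without transduction, were not analysed here, and no value below is an effect of DDX53.

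Gain of 12p, often as an isochromosome made of a pair of short arms, is the recurrent chromosome change of testicular germ cell tumours, seminomas included. The arm is also gene-rich in places. It holds a dense block of housekeeping genes, and beside these the natural killer gene complex, which encodes lectin receptors of lymphocytes and myeloid cells, and tandem families of bitter taste receptors, salivary proline-rich proteins and organic anion transporters. RNA levels in 1 line do not measure copy number, and in bulk RNA more cells with a transcript cannot be told apart from more transcript per cell.

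Replicate 1 had a depth of 24137664 reads and replicate 2 of 22198929. All 10 seminoma marker genes of a fixed list were at 1 CPM (read counts scaled to a common library total) or more in both libraries. Of 9 blood cell markers, 2 were, LCP1 at the higher level, and PTPRC, CD3E, TYROBP, CD68 and HBB had no read in either library. Of 8 markers of testis somatic cells 3 were detected, GATA4, SOX9 and AMH. DDX53 itself had 6.05 and 6.62 CPM. A count of 0 allows up to 3 reads, or 0.124 CPM for replicate 1 and 0.135 CPM for replicate 2, counting error only.

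Of the 271 members, 146 (53.9%) were detected, that is, had at least 1 CPM in both libraries. The share was 65.5% on 12q (482 of 736) and 61.7% over all 19831 protein-coding genes. No read was counted in either library for 62 members (22.9%), against 15.6% on 12q and 17.7% of all protein-coding genes. Genes of an arm are not replicates, so no test was made between arms. Among detected members the median level, as TPM (transcript abundance corrected for length) summed per gene, was 19.7 in replicate 1 and 20.3 in replicate 2. The corresponding medians were 15.7 and 15.8 TPM on 12q, and 14.6 and 14.4 TPM over all detected protein-coding genes. A level of 50 TPM or more was reached by 30.1% of the detected members, 22.0% of the detected genes of 12q and 21.5% of all detected protein-coding genes. So fewer members were detected than on 12q, while the median of those detected was higher. With undetected genes included the order was reversed. The median of the library means was then 1.44 TPM on 12p, 6.12 TPM on 12q and 3.76 TPM over all protein-coding genes. Summed over members, the share of all reads was 1.28% for replicate 1 and 1.27% for replicate 2, with 95% Wilson intervals of 1.28% to 1.29% and 1.27% to 1.28%. Members made up 1.37% of protein-coding genes. With the 19 left-out genes included the arm took 2.54% and 2.60% of the reads and made up 1.46% of protein-coding genes, so its read share was then above its gene share and not below it. On 12q, without its 8 left-out genes, the read share was 5.30% and 5.31%, against 3.71% of protein-coding genes. With them it was 5.45% and 5.47%, against 3.75%.

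**Figure D1:**
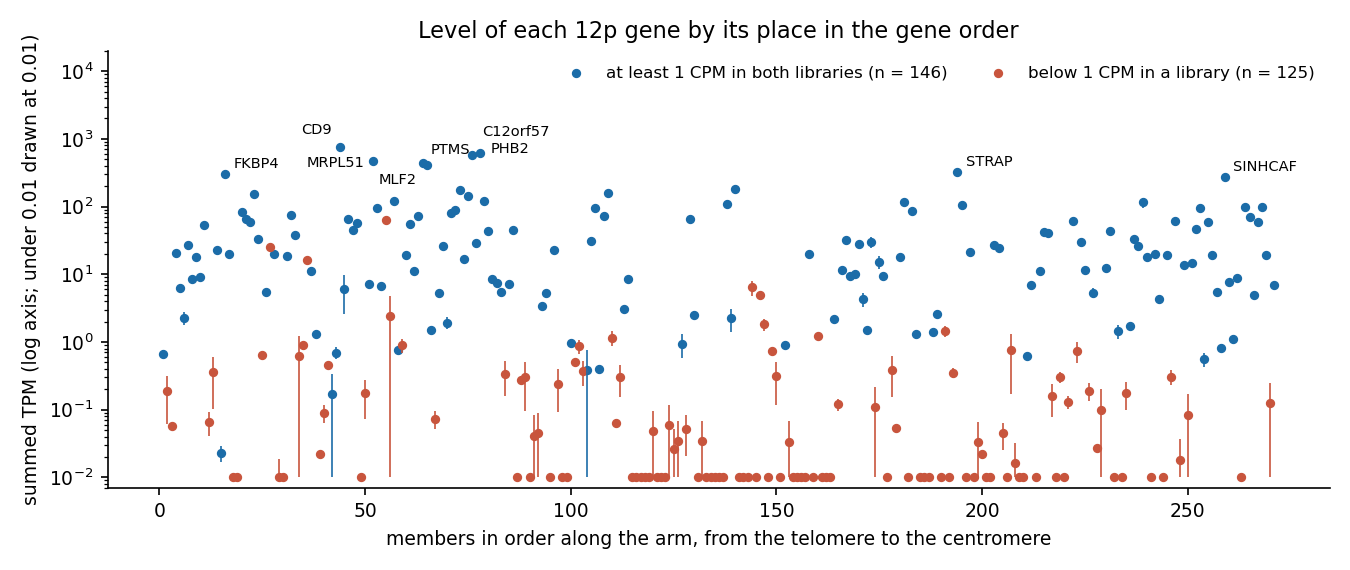
The vertical axis is the summed TPM of each of the 271 members of 12p on a log axis (points, mean of the 2 libraries; lines, the range between them) and the horizontal axis is the place in the gene order from the telomere. The 146 detected members (blue) reach 759 TPM at CD9, and members below 1 CPM (red) cluster in the middle of the arm.

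Detected and undetected members were grouped along the arm. In windows of 5 Mb from the telomere, 64.1% of 39 members were detected in the first, 60.2% of 83 in the second, and 36.8% of 68 in the third. The share was 35.7% of 14 members between 15 and 20 Mb, 39.1% of 23 between 20 and 25 Mb, 64.3% of 28 between 25 and 30 Mb and 87.5% of 16 in the last window before the centromere. Over the windows of 12q the share ran from 27.3% to 85.7%. The second window, between 5 and 10 Mb, held 11 of the 20 members with at least 100 TPM, and the median of its detected members was 27.2 TPM. The longest run of neighbouring detected members was 16 genes from GPR162 to C1RL (chr12:6821545-7109273), which includes PHB2, C12orf57, SPSB2 and ATN1. The next was 12 genes from CCDC91 to AMN1 (chr12:28133249-31729174). The longest run of undetected neighbours was 12 genes from CLECL1P to CLEC7A (chr12:9715860-10130258), most of them lectin genes. In that run the highest mean was 0.0658 CPM and 8 genes had no read. In order of lower coordinate, a run of 11 followed from TAS2R7 to TAS2R50, with taste receptors and salivary protein genes. Its members span chr12:10801532-11171608, up to the far end of PRH1. That span is not free of detected genes, as it also holds TAS2R20 (chr12:10996495-10997875). A run of 7 from KLRK1 to KLRC1 (chr12:10372353-10454685) had no read in either library. On 12q the longest undetected run was 23 genes and the longest detected run was 18 genes.

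The highest member was CD9 (ENSG00000010278; chr12:6199715-6238271), which encodes a tetraspanin of the cell surface. It had 768 TPM in replicate 1 and 751 TPM in replicate 2, or 590 and 599 CPM. PHB2 (chr12:6965327-6970825), which encodes a prohibitin of the inner mitochondrial membrane that also acts on transcription, had 617 and 619 TPM. C12orf57 (chr12:6942978-6946003) had 557 and 588 TPM. MRPL51 (chr12:6491886-6493841), a protein of the large mitochondrial ribosomal subunit, had 472 and 479 TPM. MLF2 had 440 and 433 TPM, and PTMS, which encodes parathymosin, an acidic chromatin-associated protein, had 407 and 425 TPM. These 6 genes lie within 1 window, and their order by mean TPM was the same in both libraries. STRAP (chr12:15882391-15903478), a WD-repeat protein of the SMN complex that assembles spliceosomal particles, had 321 and 326 TPM. FKBP4 (chr12:2794953-2805423), a co-chaperone of HSP90 for steroid receptors, had 298 and 302 TPM. SINHCAF (chr12:31280584-31327058), a subunit of the SIN3-HDAC complex, had 270 and 280 TPM and was the highest member of the last window. YBX3, SPSB2, M6PR, TEAD4, ATN1 and EMG1 completed the top 15, from 182 ± 0.193 TPM for YBX3 to 123 ± 7.33 TPM for EMG1 (SD, n = 2 each). M6PR, the cation-dependent mannose 6-phosphate receptor that carries enzymes to lysosomes, had 157 ± 12.5 TPM (SD, n = 2). TEAD4, with 151 TPM in each library, lay between the libraries of M6PR at 148 and 166 TPM, so the order of these neighbours is within their spread.

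Members were also described by 13 lists of roles on the arm, which held 193 of the 271 members. Some genes stand in more than 1 list, and the lists are working groups with mixed content, not tested sets. The lists were chosen with earlier results of these data known. Their detected counts and medians therefore describe the lists as drawn and support no ranking of roles.

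Of 29 members for growth and stress signalling, 16 were detected, and the median over all 29 was 1.44 TPM. TNFRSF1A and LTBR, receptors for tumour necrosis factor and lymphotoxin, had 66.5 ± 0.713 and 57.6 ± 2.25 TPM (SD, n = 2 each). ADIPOR2, an adiponectin receptor, had 53.9 ± 0.535 TPM (SD, n = 2). LRP6, a WNT co-receptor, had 11.4 ± 0.971 TPM, and WNK1, a kinase of salt and volume control, had 27.1 ± 4.52 TPM (SD, n = 2 each). The secreted factors were low. NTF3 had 0.373 and 0.450 CPM, PTHLH had no read in replicate 1 and 0.0901 CPM in replicate 2, FGF23 had 0.0414 CPM in replicate 1 and none in replicate 2, and FGF6 had no read. EPS8, RERG and EMP1 also did not reach 1 CPM in both libraries.

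Of 24 members for transcription and chromatin, 19 were detected, with a median of 23.6 TPM over all 24. After the genes named above, TEAD4, a DNA-binding partner of YAP known for its role in trophectoderm, had 151 TPM in each library. CHD4, the ATPase of the NuRD remodelling complex, had 128 and 111 TPM. FOXM1, a regulator of mitotic genes, had 83.2 and 80.4 TPM. PHC1, a subunit of Polycomb repressive complex 1, had 71.2 and 72.2 TPM. ETV6, an ETS repressor, was at 2.17 ± 0.235 TPM (SD, n = 2). SOX5, a SoxD factor, had 0.580 and 0.766 CPM and was not detected. LMO3, BHLHE41, NRIP2 and ZNF705A had no read in either library.

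All 11 members of the list for cell cycle and genome maintenance were detected, with a median of 81.8 TPM. The list also holds FKBP4, the deubiquitinase gene USP5 and SPSB2, an adaptor of ubiquitin ligases. NCAPD2, a condensin subunit, had 93.2 and 95.8 TPM, and CDCA3, a mitotic entry factor, had 83.4 and 76.4 TPM. RAD51AP1, a factor of homologous recombination, had 75.1 and 77.0 TPM, and RHNO1, of the ATR checkpoint, had 65.6 and 65.0 TPM. RAD52 and PARP11 were the lowest, at 8.56 ± 0.202 and 5.42 ± 0.702 TPM (SD, n = 2 each).

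Of 14 members for RNA, ribosome and protein synthesis, 13 were detected, with a median of 85.3 TPM. Beside MRPL51 and STRAP, MAGOHB, a copy of the exon junction protein MAGOH, had 113 and 103 TPM. YARS2, the mitochondrial tyrosyl-tRNA synthetase, had 100.5 and 93.6 TPM, and MRPS35, of the small mitochondrial ribosomal subunit, had 57.7 and 62.6 TPM. The undetected gene was NOP2, a methyltransferase of ribosomal RNA, for which the tables differed, as given further on.

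All 17 members for membrane traffic and organelles were detected, with a median of 33.3 TPM. TM7SF3 had 95.9 and 135 TPM, and ERGIC2, of the ER-Golgi intermediate compartment, had 94.4 and 92.8 TPM. BICD1, a dynein adaptor, had 74.9 and 66.8 TPM, and DNM1L, the GTPase of mitochondrial fission, had 59.4 and 58.4 TPM. The list also holds RECQL, a DNA helicase, at 45.1 and 39.6 TPM, and AEBP2, a subunit of Polycomb repressive complex 2, at 25.7 and 23.0 TPM.

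Of 22 members for metabolism and mitochondria, 16 were detected, with a median of 7.83 TPM over all 22. PLBD1 had 122 and 109 TPM, and DERA, which cleaves deoxyribose phosphate, had 109 and 103 TPM. GABARAPL1, an autophagy protein that the list shares with membrane traffic, had 66.9 and 65.6 TPM, and TMTC1 had 56.8 and 62.2 TPM. FAR2, a fatty acyl-CoA reductase, and LPCAT3, which remodels membrane phospholipids, had 46.5 ± 2.25 and 43.8 ± 0.209 TPM (SD, n = 2 each). BCAT1, the cytosolic branched-chain aminotransferase, had 4.46 and 6.22 TPM, and ETNK1, ethanolamine kinase, had 11.7 and 11.1 TPM. GYS2, the liver form of glycogen synthase, ACSM4 and MGP had no read.

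**Figure D2:**
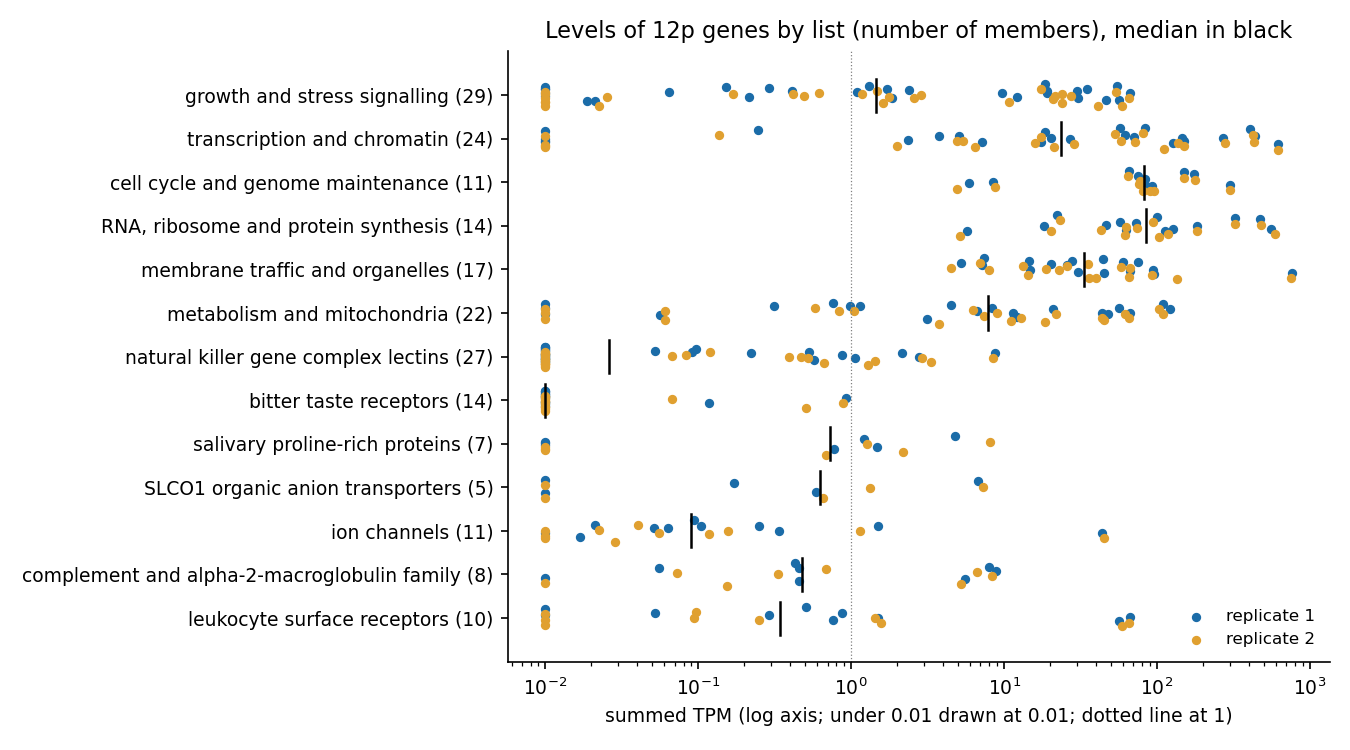
Each point is the summed TPM of 1 member in 1 library (blue, replicate 1; orange, replicate 2) on a log axis, by list, with the number of members in brackets and the median of the members in black. The medians of the lists for cell cycle (81.8 TPM) and RNA (85.3 TPM) stand highest, and those of the lectins, taste receptors and ion channels lie below 0.1 TPM.

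The tandem families had few detected members. Of 27 lectin genes of the natural killer complex, 4 were detected and 14 had no read in either library. CLEC2D, a ligand of lymphocyte lectins, was the highest with 12.6 and 16.3 CPM, followed by KLRD1 (CD94) with 5.97 and 4.91 CPM, KLRB1 with 2.94 and 3.74 CPM and OLR1, a receptor for oxidised lipoprotein, with 1.04 and 1.44 CPM. Of 14 bitter taste receptor genes, 9 had no read and only TAS2R20 was detected, at 1.24 and 1.04 CPM. None of 7 salivary proline-rich genes was detected. By reads PRB3 was the highest with 0.953 and 0.766 CPM, then PRH1 with 0.331 and 0.135 CPM, PRR4 and PRH2 with 1 read or none in a library, and PRB1, PRB2 and PRB4 with no read. In TPM the order differed, with 4.79 and 8.08 for PRH1, 1.47 and 2.16 for PRR4 and 1.21 and 1.27 for PRB3. PRH1 shares 42.3% and PRR4 35.2% of its exonic length with other genes on the same strand, and the reads of both were over 4-fold below those predicted from TPM in both libraries, so their counts are uncertain. Of 5 SLCO1 genes, SLCO1A2 was detected with 14.0 and 14.7 CPM and SLCO1B1 with 1.49 and 1.80 CPM, SLCO1B3 had 1 read in replicate 2, and SLCO1B7 and SLCO1C1 had none. Some members of these families are close paralogs, and how reads that match several genes were assigned is not given in the sources used here. The 4 families make up 53 members, of which 7 (13.2%) were detected. Of the other 218 members 63.8% were detected, against 65.5% on 12q, from which no family was removed.

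Among 10 genes named for leukocytes, TNFRSF1A and LTBR were well above the rest. LAG3, an inhibitory receptor of T cells, had 1.86 and 1.98 CPM. CD4 had 0.124 and 0.225 CPM, CD27 had no read in replicate 1 and 0.0450 CPM in replicate 2, CD163 had 0.414 and 0.270 CPM, CD163L1 had 0.414 and 0.360 CPM, and APOBEC1 had no read. Beside these values, PTPRC, the pan-leukocyte marker, had no read. Of 11 ion channel genes 4 were detected. SCNN1A, the alpha subunit of the epithelial sodium channel, had 97.1 and 94.2 CPM, and KCNA6, a voltage-gated potassium channel, had 4.64 and 3.83 CPM. ANO2 and CACNA1C were detected by reads but had 0.169 and 0.0227 TPM on average. Of 8 genes for complement and the alpha-2-macroglobulin family 5 were detected. The proteases of the first complement component had 19.1 and 18.6 CPM (C1S) and 9.78 and 9.32 CPM (C1R), and C1RL had 9.40 and 9.37 CPM. OVCH1 had 1.16 and 1.62 CPM and A2ML1 had 1.82 and 1.40 CPM. PZP and A2M stayed under 1 CPM in both libraries, and C3AR1 had no read.

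Several neighbours on opposite strands have close starts. Under the rule of opposite strands and starts at most 1000 bases apart, 19 pairs with 35 members were found. A start here is the outermost one annotated for the gene, and alternative starts were not examined. In some of them, such as MRPL51 with NCAPD2, the genes overlap at their starts. SMIM10L1 was the detected gene in its pairs with PRH1, ENSG00000275778 and TAS2R14, so the pairs are not independent. Of these 35 members 68.6% were detected, against 51.7% of the other 236. On 12q the shares were 81.4% of 113 paired genes and 62.6% of the other 623. Both genes were detected in 10 of the 19 pairs, neither in 2 and 1 of them in 7. On 12q both were detected in 42 of 58 pairs. PHB2 and EMG1, an rRNA methyltransferase gene, start 68 bases apart and had means of 618 and 123 TPM. RECQL and GOLT1B start 112 bases apart and had 42.4 and 40.0 TPM. In other pairs only 1 gene was detected. STRAP had a mean of 323 TPM, while EPS8, a regulator of actin that starts 62 bases away, had 0.353 TPM. M6PR had 157 TPM, while KLRG1, an inhibitory lectin of lymphocytes that starts 89 bases away, had 1.15 TPM.

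The starts of these 4 pairs are shown so that pairs with both genes detected and with 1 undetected gene can be read together. The start of CLEC12A, a myeloid lectin gene without a read, follows them. Each sequence is the plus strand of the RefSeq promoter of the named gene (GRCh38.p14), from 250 bases before the start to 50 after it, and capitals mark CG dinucleotides. The windows are chr12:6970663-6970962 for EMG1, chr12:21501539-21501838 for GOLT1B, chr12:15882137-15882436 for STRAP, chr12:8949794-8950093 for KLRG1 and chr12:9971159-9971458 for CLEC12A.
EMG1: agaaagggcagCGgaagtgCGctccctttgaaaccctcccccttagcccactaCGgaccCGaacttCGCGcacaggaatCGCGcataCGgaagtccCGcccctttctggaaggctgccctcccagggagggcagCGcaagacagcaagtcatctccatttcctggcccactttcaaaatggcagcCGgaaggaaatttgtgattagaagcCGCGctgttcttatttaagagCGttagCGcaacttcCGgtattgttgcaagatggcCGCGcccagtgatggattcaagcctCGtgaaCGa
GOLT1B: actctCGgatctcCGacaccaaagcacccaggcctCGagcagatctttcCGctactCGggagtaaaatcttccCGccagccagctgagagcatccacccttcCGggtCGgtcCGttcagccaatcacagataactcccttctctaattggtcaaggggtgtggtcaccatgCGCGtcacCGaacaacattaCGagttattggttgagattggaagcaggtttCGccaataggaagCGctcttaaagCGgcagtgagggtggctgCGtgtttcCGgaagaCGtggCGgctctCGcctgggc
STRAP: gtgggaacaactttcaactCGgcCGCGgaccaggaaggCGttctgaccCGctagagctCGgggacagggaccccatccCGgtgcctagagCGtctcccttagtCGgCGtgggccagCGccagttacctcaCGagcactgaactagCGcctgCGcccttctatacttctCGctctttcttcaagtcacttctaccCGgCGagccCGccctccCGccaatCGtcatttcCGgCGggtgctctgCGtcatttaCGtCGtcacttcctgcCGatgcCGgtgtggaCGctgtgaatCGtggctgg
KLRG1: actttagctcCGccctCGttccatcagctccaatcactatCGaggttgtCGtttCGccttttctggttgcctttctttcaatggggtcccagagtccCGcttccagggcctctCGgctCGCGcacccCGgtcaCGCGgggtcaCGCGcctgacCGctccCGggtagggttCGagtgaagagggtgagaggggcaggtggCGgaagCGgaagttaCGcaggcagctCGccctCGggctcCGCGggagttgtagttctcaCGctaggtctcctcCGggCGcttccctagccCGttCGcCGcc
CLEC12A: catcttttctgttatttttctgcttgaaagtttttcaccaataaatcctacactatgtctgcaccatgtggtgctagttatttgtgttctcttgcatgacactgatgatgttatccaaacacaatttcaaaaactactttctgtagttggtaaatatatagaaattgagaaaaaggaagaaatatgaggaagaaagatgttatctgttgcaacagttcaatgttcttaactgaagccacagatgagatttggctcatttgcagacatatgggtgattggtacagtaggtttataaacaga

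The GENCODE start of the partner lies inside each of the 4 shared windows, at base 163 for PHB2, 131 for RECQL, 193 for EPS8 and 162 for M6PR. The window of EMG1 and PHB2 holds 21 CG dinucleotides, that of GOLT1B and RECQL 21, that of STRAP and EPS8 29 and that of KLRG1 and M6PR 30. Among these 4, the windows of the pairs with 1 undetected gene hold no fewer than those with both detected. The starts are the outermost annotated ones, so a window need not hold every start of an undetected gene. The 4 pairs and CLEC12A were chosen after their values were seen, so nothing follows for other genes. The window of CLEC12A holds 0. The median over the 34796 distinct promoters of the RefSeq table is 14 (quartiles 4 and 28), at least 1 CG occurs in 96% of them, and 3.97% have none. The table held a promoter for 184 of the 271 members (67.9%), too few for a summary over the members, so that check is void.

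The replicates were then compared. Over the 150 members with a mean of at least 1 CPM, the median of log2((CPM + 1)/(CPM + 1)), replicate 2 against replicate 1, was -0.0086, with 71 members above 0 and 79 below it. Differences ranged from -0.48 to 0.54, with an SD of 0.18 across members. The median was -0.0084 on 12q and -0.0073 over all protein-coding genes. An exact binomial test of the reads (edgeR, Benjamini-Hochberg adjustment over 15299 genes), which compares these libraries with counting noise and not conditions, called 31 of the 160 members that passed its filter on low counts. This is 19.4%, against 13.1% of all genes tested, 14.6% of the protein-coding genes tested and 16.8% of those tested on 12q. The median tested member had 29.8 CPM, against 18.7 CPM over all genes tested. Among genes with at least 10 CPM the test called 29 of 111 members (26.1%), against 19.1% of all such genes and 21.7% on 12q. Of the 31 members, 17 were higher in replicate 2 (10.6% of the 160, against 6.78% of all genes tested) and 14 were lower (8.75%, against 6.35%). With 1 library on a side, none of these differences has a replicate check.

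**Figure D3:**
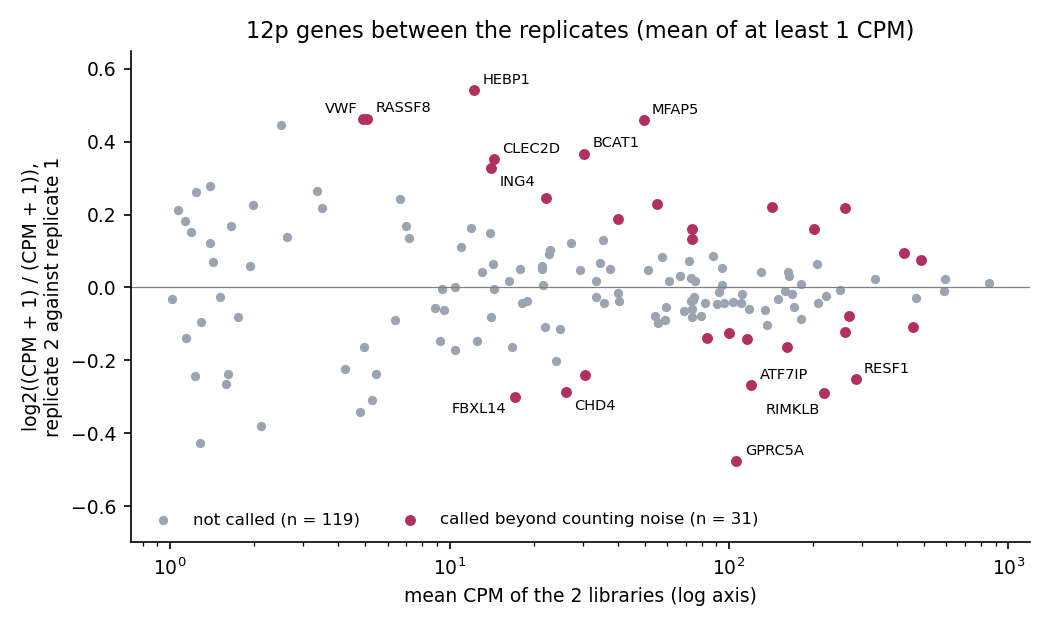
The horizontal axis is the mean CPM (log axis) and the vertical axis the log2 difference of replicate 2 against replicate 1 at a pseudocount of 1 CPM, for the 150 members of 12p with a mean of at least 1 CPM. The 31 members called beyond counting noise (dark) lie on both sides of 0, from -0.48 for GPRC5A to 0.54 for HEBP1.

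HEBP1, a heme-binding protein, was most raised in replicate 2 among members with at least 10 CPM, with 236 reads (9.78 CPM) in replicate 1 and 326 reads (14.7 CPM) in replicate 2, a log2 difference of 0.54 (edgeR exact binomial test, adjusted p of 4.3e-05). MFAP5, a protein of elastic microfibrils, had 41.5 and 57.4 CPM (0.46), BCAT1 had 26.3 and 34.2 CPM (0.37), CLEC2D had 12.6 and 16.3 CPM (0.35) and ING4, a reader of histone methylation, had 12.3 and 15.8 CPM (0.33). GPRC5A, an orphan receptor induced by retinoic acid, was most lowered, with 124 CPM (95% Wilson interval, 120 to 128) and 88.8 CPM (85.0 to 92.8), a log2 difference of -0.48 (edgeR exact binomial test, adjusted p of 1.7e-27). FBXL14, an F-box protein, had 19.0 and 15.2 CPM (-0.30), RIMKLB had 241 and 197 CPM (-0.29), CHD4 had 28.8 and 23.5 CPM (-0.29) and ATF7IP, a cofactor of the histone methyltransferase SETDB1, had 132 and 109 CPM (-0.27). All 10 passed the adjusted threshold of 0.05. Of the 31 called members, 13 differed by at least 0.25, 7 of them higher and 6 lower, and 30 had the same direction in TPM. By list, the edgeR exact binomial test called 2 higher and 3 lower of 19 tested for signalling, 3 and 3 of 20 for transcription and chromatin, and 0 of 11 for the cell cycle. It called 2 higher and 0 lower of 13 for RNA, 1 and 2 of 17 for membrane traffic, 3 and 1 of 17 for metabolism, and 1 higher of 7 lectin genes. Beside 13.1% of all genes tested, the counts in lists of this size are too small to set any list apart.

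Transcript use was read from the salmon table, which gives no depth per transcript. Of the members, 90 had more than 1 matched transcript and at least 10 TPM in both libraries. Shares were taken only over transcripts matched to GENCODE release 29 (201667 of 251955, carrying 94.8% of TPM). The share of the top transcript had a median of 70.1% (replicate 1) and 72.0% (replicate 2). The median shift of that share between libraries was 2.04 percentage points, against 3.17 on 12q and 3.01 over protein-coding genes. In CD9 the top transcript CD9-201 held 58.1% and 67.1%, and the next in replicate 1 held 21.1% and 12.9%. In PHB2, PHB2-203 held 91.4% and 90.5%. The top transcript was annotated as something other than protein-coding in replicate 1 for 7 members (7.78%, against 7.85% of protein-coding genes). They were EMG1, CHD4, YARS2, DYRK4, P3H3, TIGAR and LRRC23. In YARS2 the processed transcript YARS2-203 held 54.6% and 52.9%, and in EMG1 the transcript EMG1-204, marked for nonsense-mediated decay, held 40.8% and 32.7%. The top transcript differed between the libraries in 6 members (6.67%, against 7.05% on 12q and 6.88% over protein-coding genes). The highest 5 were CHD4, ERGIC2, ZNF384, PPFIBP1 and CCDC77. In CHD4, CHD4-249 held 18.8% and 15.8% and CHD4-206 held 15.6% and 23.9%. In ERGIC2, ERGIC2-211 held 30.1% and 23.1% and ERGIC2-207, marked for nonsense-mediated decay, held 18.4% and 24.2%. In ZNF384, a zinc finger factor, ZNF384-202 held 29.1% and 29.4% and ZNF384-204 held 25.8% and 30.1%, a near tie in replicate 2. PPFIBP1-202, of a liprin gene, held 28.8% and 18.1% against 27.5% and 28.1% for PPFIBP1-201, and CCDC77-201 held 50.2% and 40.6% against 37.1% and 45.7% for CCDC77-202. The sixth was ERC1, of the presynaptic active zone and cell edge, in which ERC1-213 held 53.3% and 41.4% and ERC1-203 held 44.3% and 54.7%.

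The gene and transcript tables were set against each other for the 92 members with at least 10 TPM in both libraries. The CPM of a gene was compared with the CPM predicted from TPM times transcript length. The median log2 ratio of counted to predicted reads was 0.083 in replicate 1 and 0.10 in replicate 2. In 5 members (5.43%) the reads were over 4-fold below the prediction in both libraries, against 5.65% of such genes on 12q and 4.91% of such protein-coding genes. NOP2 (chr12:6556863-6568691) had 62.6 and 62.0 TPM but 8 and 10 reads, or 0.331 and 0.450 CPM where 98.0 and 95.5 were predicted. CHD4 (chr12:6570082-6614524) had 28.8 and 23.5 CPM where 335 and 315 were predicted. By GENCODE exons, 54.4% of the exonic length of NOP2 and 46.9% of that of CHD4 lie in same-strand exons of other genes. For both this is chiefly ENSG00000285238, a gene that had no read. ENSG00000285901, which shares 78.6% of its exonic length with other genes, chiefly TIGAR, had 22.5 and 27.8 TPM and was the 1 member of the 92 without a read. ENSG00000255639 shares 73.7%, chiefly with GALNT8, and had 16.2 ± 1.74 TPM (SD, n = 2) but 0.911 and 0.676 CPM. EMG1 shares 3.65% and had 25.8 and 23.8 CPM where 119 and 110 were predicted. Of the 6 members with at least 10% of their exonic length shared, 4 were among these 5, and on 12q it was 12 of 23. How reads in shared exons were counted is not given in the sources used here. The gap of EMG1 stands beside little shared length on the same strand in GENCODE release 29. LPCAT3 (chr12:6976186-7018510), on the opposite strand, spans part of EMG1 (chr12:6970893-6997428). Overlap across strands, or with genes absent from that release, was not measured. For NOP2, CHD4 and EMG1 the tables disagree, so the count is uncertain, and the lower CPM of CHD4 in replicate 2 rests on such a count, although its TPM was lower too. In the other direction, 122 members had a mean of at least 5 CPM. Among them ANO2 was the 1 member whose reads were over 4-fold above the prediction in both libraries. It had 18.4 and 17.9 CPM and 0.337 TPM and none. TPM and prediction use only transcripts matched to GENCODE release 29, so unmatched transcripts of a gene are not in them. PLEKHG6, a guanine nucleotide exchange factor, was above it in replicate 2, with 18.2 CPM where 0.501 was predicted, but not in replicate 1, with 17.5 CPM where 10.8 was predicted.

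**Figure D4:**
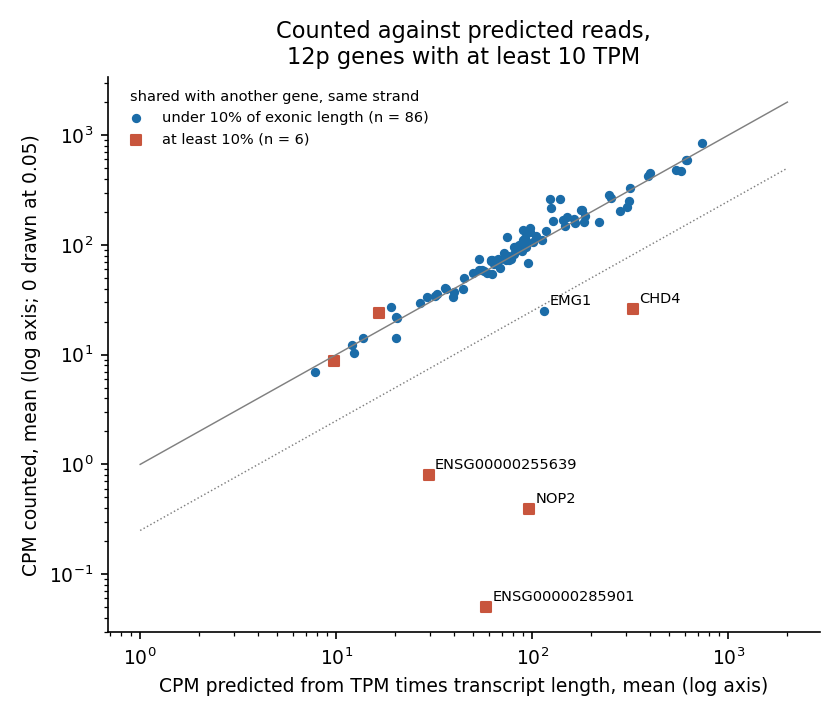
The horizontal axis is the CPM predicted from TPM times transcript length and the vertical axis the CPM counted (both log axes, mean of the libraries), for the 92 members with at least 10 TPM; the solid line is equality and the dotted line 4-fold below it. Squares are the 6 members that share at least 10% of their exonic length with another gene on the same strand, and NOP2, CHD4 and both unnamed genes lie far below the line.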

How the data were processed

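Polyadenylated RNA of TCam-2 cells was prepared as strand-specific libraries, per the labels' protocols. The submitters' processing notes name Trim Galore 0.6.10, STAR 2.7.11a, Salmon 1.10.2 and DESeq2 on GRCh38, without roles. The deposited transcript table holds TPM. The deposited gene table is named as CPM, but its values are a signal: reads over a single scaling factor for each library. Each value was a whole multiple of 1.02 in replicate 1 and 1.12 in replicate 2 (100% of values above 0, within 0.01 reads), so whole reads were recovered and CPM computed from them. The header names no identifier column, so its first name was read as the first value column. Depth was 24137664 and 22198929 reads.

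Genes were matched by Ensembl identifier to GENCODE release 29, and 201667 of 251955 transcripts matched, carrying 94.8% of TPM. Where the gene table's newer names differ, those are printed. Exonic overlap used merged GENCODE exons. The libraries were compared with edgeR 4.0.16 (binomTest, TMM, filterByExpr, Benjamini-Hochberg, threshold 0.05), tested on simulated data. R 4.3.3 and Python 3.11.15 were used. Members and lists were chosen with earlier results of these data known. Named members are the 15 highest by TPM, up to 4 per list (all of lists of 8 or fewer), the 5 most raised and lowered with at least 10 CPM, the 5 highest whose top transcript differed, those with 10 TPM and no read, and the ends of long undetected runs. Other named members, among them the pairs with close starts, were chosen after their values were seen. Some members are not reported by name here.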

Additional observations from a re-analysis of the deposited data

How the results depend on the processing

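No paired analysis was possible because only 1 group exists here. The number of members detected (146) stayed within 1.5 times under all 8 alternatives, from 119 at 5 CPM to 180 at 0.1 CPM, with 148 and 149 in single libraries. Some alternatives change the gene set, so the count alone does not show how the share moved. The share was 53.9% in the main set and 55.9% with no gene of the arm left out. It was 57.6% for members with under 10% exonic overlap and 63.8% without the 4 tandem families. The number apart between the replicates (31) ran from 24 when every gene with a read was tested to 35 with no gene of the arm left out. The median replicate difference kept its sign or became 0. The median of detected members, 19.6 TPM, was 7.21 as CPM per kb of merged exons (another unit), 1.44 without the filter on low values, 27.8 at 5 CPM, 20.6 with no gene of the arm left out and 20.2 for members with under 10% exonic overlap, and 19.2 to 19.9 with either library left out. A stricter filter removes low genes by construction. A change of top transcript was seen in 6 of 90 members (6.67%) from 10 TPM upward, in 16 of 137 (11.7%) from 1 TPM and in 3 of 45 (6.67%) from 50 TPM. From 1 TPM the share itself was higher, and the cause was not tested. Members without a read at 50 TPM or more numbered 0, against 1 at 10 TPM. The overlap filter and the removal of the tandem families were chosen after seeing the data. Leaving out a library leaves no comparison between replicates, so the differences, transcript changes and reads against TPM have no such value. Depth limits the low members: a gene without a read could have 0.124 CPM in replicate 1 and 0.135 CPM in replicate 2.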
